A study of Mus musculus with 5 samples.

Results

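Wwox was the gene with the most intronic peaks in both lists of RNA regions recovered with CCT3, and it had no peak in the list for PABPC1. Its peaks are the rows of the 3 deposited peak tables whose gene symbol is Wwox or whose annotation carries its Entrez gene ID, 80707. There were 134 such peaks among 43658 in all, 52 of 10916 in the CCT3 list, 82 of 18650 in the CCT3-2 list and 0 of 14092 in the PABPC1 list. Every one carried both the symbol and the gene ID, and all of them lay inside the gene. The gene was singled out for this number of peaks, so its counts and ranks below are descriptions without a test.

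The cells were GC-2spd(ts), labelled as mouse spermatocyte cells and known as a line immortalised with SV40 large T antigen and a temperature-sensitive p53, and no group carried a treatment or a genetic change in the labels. RNA was crosslinked to protein, trimmed with RNase I, immunoprecipitated with an antibody against PABPC1, the cytoplasmic poly(A)-binding protein, or against CCT3, part of the cytosolic TRiC/CCT chaperonin, and sequenced (eCLIP), with input libraries made from the same lysates. The 5 samples were 1 PABPC1 immunoprecipitation, 1 PABPC1 input, 2 CCT3 samples called CCT3 and CCT3-2, and 1 CCT3 input. It is not known here whether CCT3 and CCT3-2 are separate immunoprecipitations. CCT3 and CCT3-2 carry the same library name in the labels, so they are not shown to be independent, were not averaged, and no comparison has a replicate check. Read totals were not used here and the depth behind each peak is unknown. The label was set against 10 meiotic spermatocyte markers, of which Sycp1, Sycp3, Dmc1 and Stra8 had a PABPC1 peak and 0 a peak in either CCT3 list, and peaks are not a measure of expression. Peaks lay in PABPC1 for 4 of 6 Sertoli cell, 5 of 5 Leydig cell and 6 of 6 fibroblast markers, and in each CCT3 list for 1, 1 and 0 of them. Over all protein-coding genes, 22.9% had a peak in PABPC1, 9.55% in CCT3 and 12.3% in CCT3-2.

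Wwox encodes the WW domain-containing oxidoreductase, a protein that joins WW domains, which bind proline-rich motifs of partner proteins, to a short-chain dehydrogenase/reductase domain. It is studied as a tumour suppressor and in steroid metabolism and brain development. The gene is very long for the small protein that it encodes, because a few introns take up nearly all of it, and the human gene spans a common fragile site, a region prone to breaks when replication is slowed. Introns are transcribed with the gene and are normally removed from the RNA in the nucleus.

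All Wwox peaks were intronic, and only 2 introns held them. In mm10 the gene runs along the plus strand of chromosome 8 from 114439635 to 115352712, which is 913078 bases. The deposited annotation, by transcript ENSMUST00000004756.13, placed 10 CCT3 peaks in intron 5 of 8 and 42 in intron 8 of 8, the last intron. The last intron thus held 80.8% of CCT3 peaks (Wilson 95% interval 68.1 to 89.2%). For CCT3-2 the counts were 20 in intron 5 and 62 in intron 8, or 75.6% in the last intron (65.3 to 83.6%). Exons, UTRs, the promoter class and the other introns had 0 Wwox peaks. Across the whole lists, 29.6% of CCT3 and 27.6% of CCT3-2 peaks were intronic, and of these intronic peaks 11.7% and 11.8% lay in a last intron. Because Wwox was singled out for its number of peaks, its shares are descriptions and not like for like with those of the lists. Intron lengths were not used here, so the share in intron 8 was not set against how much of the gene that intron takes up. The exact 95% intervals for an intronic share of 100% reached down to 93.2% in CCT3 and 95.6% in CCT3-2. These intervals, like all given here, cover counting error only, and neighbouring peaks are not independent.

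**Figure D1:**
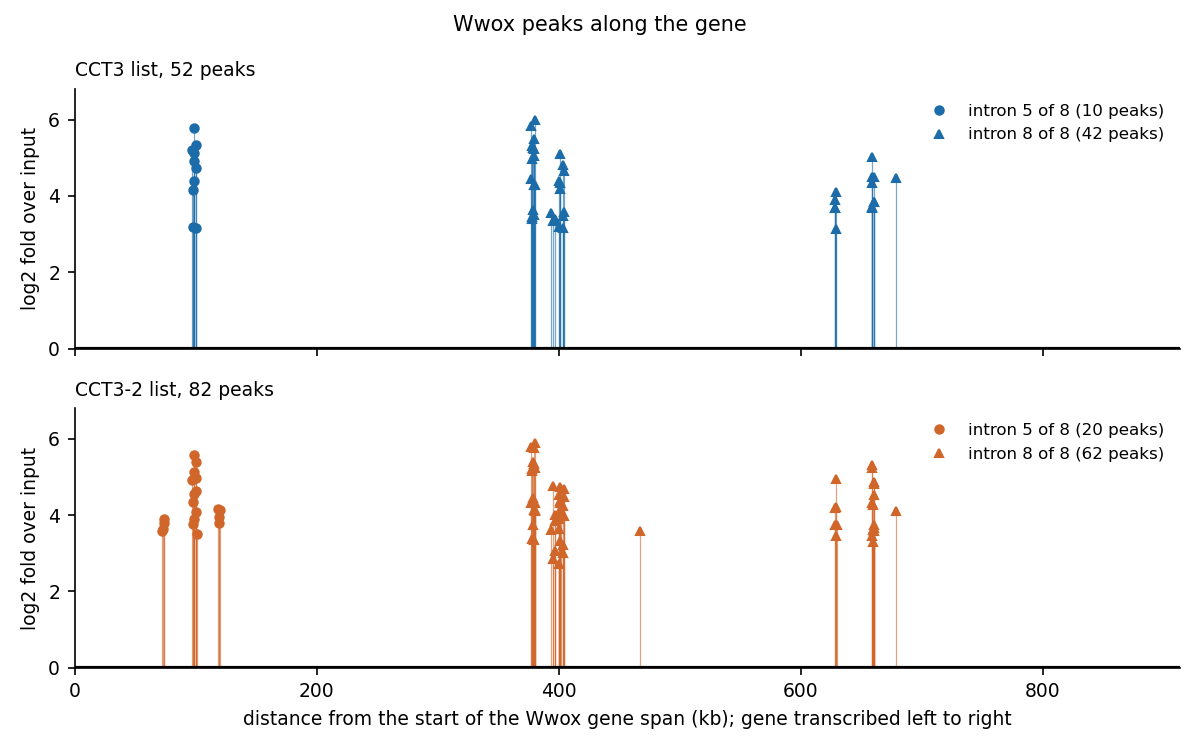
Each symbol is 1 Wwox peak, placed by its distance from the start of the gene span (horizontal axis, kb) at its log2 fold over input (vertical axis), with circles for intron 5 and triangles for intron 8. In both lists the peaks stand in a few narrow groups with long empty stretches between them, and CCT3-2 has 3 groups, at 72.5, 119 and 467 kb, that CCT3 lacks.

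The peaks stood in short stretches separated by long gaps. Peaks of both lists at most 5000 bases apart formed 9 stretches, which together took up 24.4 kb, or 2.67% of the gene. Of these 9, 6 held peaks of both lists and 3 only CCT3-2 peaks. The CCT3 peaks covered 3067 bases, 0.336% of the gene, and those of CCT3-2 5120 bases, 0.561%. The first CCT3 peak lay 97.1 kb and the first CCT3-2 peak 72.5 kb into the gene. In each list the last peak lay 234 kb before the gene's end. The median gap between neighbouring peaks was 197 bases in CCT3 and 146 in CCT3-2, while the longest gaps, between the peaks of intron 5 and those of intron 8, were 276 and 256 kb.

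The stretch in intron 5 shared by both lists ran from 114536718 to 114540332, 3.62 kb in all, with 10 CCT3 and 12 CCT3-2 peaks. Its highest log2 fold over input in CCT3 was 5.78, for the peak from 114537944 to 114538010, whose −log10 p was 13.2. The CCT3-2 peak over it, 114537939 to 114538010, had 5.57 and 10.9 for the same quantities. The CCT3 peak just before it, 114537816 to 114537927, reached 4.90 with a −log10 p of 12.6, and its CCT3-2 counterpart 4.57 and 15.1. In both lists these neighbours had the 2 largest −log10 p values of intron 5. The first peak of this stretch, which is the first CCT3 peak of the gene, had nearly the same borders in both lists, 114536718 to 114536798 and 114536719 to 114536797, with log2 folds of 5.20 and 4.92. The median log2 fold of the stretch was 4.81 in CCT3 and 4.60 in CCT3-2.

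Intron 5 had 2 further stretches in CCT3-2 alone, each of 4 peaks. The first, 114512136 to 114513151, had log2 folds of 3.57 to 3.91 and −log10 p values of 2.17 to 2.97, so none reached a −log10 p of 3, which every peak of the CCT3 list does. The second, 114558414 to 114559941, had log2 folds of 3.80 to 4.15 and −log10 p values of 2.86 to 4.01. The nearest CCT3 peak was 23.6 kb from the first stretch and 18.2 kb from the second.

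The first stretch of intron 8, from 114816439 to 114820315, had the most CCT3 peaks, 15, and 19 CCT3-2 peaks in 3877 bases. It held the highest folds of the gene in both lists. In CCT3 this was the peak from 114819699 to 114819876, the widest of that list in Wwox at 178 bases, where the log2 fold was 5.98 and the −log10 p 13.4. CCT3-2 had 2 peaks there, 114819720 to 114819806 at a log2 fold of 5.23 and 114819811 to 114819875 at 5.90. The next highest CCT3 peak, 114816440 to 114816493, had 5.83, and its CCT3-2 counterpart, 114816439 to 114816500, had 5.79. Both lists put their largest −log10 p of the gene on the peak that begins at 114818368, with 16.4 in CCT3 and 18.3 in CCT3-2. Not every strong peak had a partner: the CCT3-2 peak at 114818789 to 114818864 had the third highest fold of its list in Wwox, 5.77, and lay 129 bases from the nearest CCT3 peak. The median log2 fold was 4.96 in CCT3 and 4.35 in CCT3-2.

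A looser stretch followed 13.0 kb downstream, from 114833306 to 114844051, with 13 CCT3 and 22 CCT3-2 peaks over 10.7 kb. All 13 CCT3 peaks overlapped a CCT3-2 peak. Their median log2 fold was 3.59, against 4.00 for the 22 CCT3-2 peaks, and the highest folds were 5.09 in CCT3, at 114840967 to 114841053, and 4.77 in CCT3-2, at 114834623 to 114834714. Most peaks here sat toward its downstream end, in a cluster from 114839676 to 114841124 with 5 CCT3 and 10 CCT3-2 peaks and another from 114843081 to 114844051 with 5 and 6.

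Far downstream, intron 8 held 3 more stretches in both lists. That from 115067898 to 115069178 had 5 CCT3 peaks at log2 folds of 3.13 to 4.09 and 6 CCT3-2 peaks at 3.45 to 4.95. That from 115098278 to 115100460 had 8 CCT3 peaks at 3.68 to 5.02 and 13 CCT3-2 peaks at 3.30 to 5.32. The last was a single peak, 115118161 to 115118225 at 4.46 in CCT3 and 115118160 to 115118229 at 4.11 in CCT3-2. Upstream of these 3, CCT3-2 alone had 1 isolated peak in intron 8, at 114907012 to 114907059, with a log2 fold of 3.57, a −log10 p of 2.17 and a distance of 63.0 kb from the nearest CCT3 peak. The median −log10 p was largest in the first stretch of intron 8 in both lists, at 7.30 in CCT3 and 9.64 in CCT3-2. In the later stretches with more than 1 peak in each list it was 3.71 to 4.64 in CCT3 and 5.13 to 6.84 in CCT3-2.

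**Figure D2:**
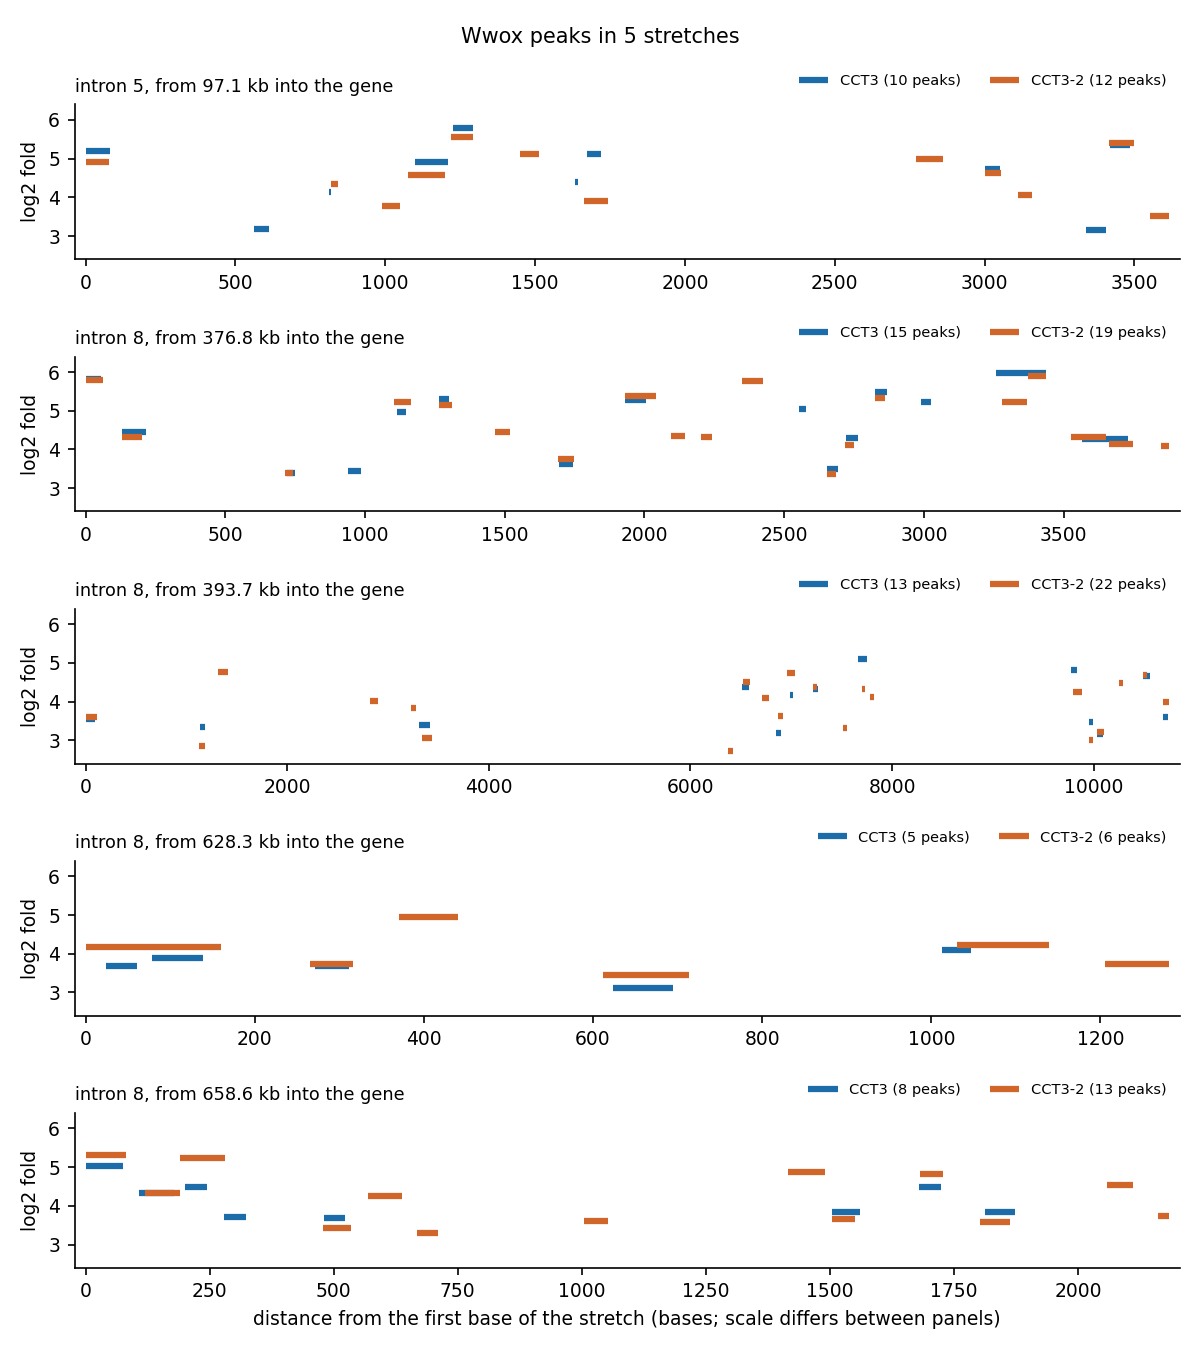
Each bar is 1 peak, drawn over the bases it covers (horizontal axis, distance in bases from the first base of the stretch, scale differing between panels) at its log2 fold over input (vertical axis). The panels are the 5 stretches with more than 1 CCT3 peak. Most CCT3 bars share bases with a CCT3-2 bar, while many CCT3-2 bars have no CCT3 partner. In the last panel 8 of 8 CCT3 and 7 of 13 CCT3-2 peaks overlap the other list, and the first peaks stand at 5.02 and 5.32.

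With peaks at most 1000 bases apart joined, the CCT3 list had 11 clusters in Wwox and the CCT3-2 list 14. The largest held 15 and 19 peaks. Clusters of 5 or more peaks held 45 of the 52 CCT3 peaks (86.5%, 74.7 to 93.3%) and 66 of the 82 CCT3-2 peaks (80.5%, 70.6 to 87.6%). Over all intronic peaks the shares in such clusters were 55.4% in CCT3 and 63.5% in CCT3-2, so crowding was frequent in introns of both lists. Wwox was chosen for its number of peaks, whereas 228 of 684 genes in CCT3 and 244 of 857 in CCT3-2 had 1 intronic peak. The shares of Wwox and of all intronic peaks are therefore not like for like. A neighbour within 1000 bases was present for 48 CCT3 and 79 CCT3-2 peaks in Wwox, against 85.1% and 88.8% of all intronic peaks. By size, the Wwox cluster of 15 ranked 13 among 1123 intronic CCT3 clusters, tied with 4 others, and that of 19 ranked 20 among 1494 in CCT3-2, tied with 1. The largest clusters elsewhere had 28 and 34 peaks. Wwox had 6 clusters of 5 or more peaks in CCT3 and 7 in CCT3-2, more than any of the other genes with such a cluster, of 170 and 257 in all. The single clusters of Wwox were not the largest of either list, and its count came from having several of them.

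Every CCT3-2 peak in Wwox was on the plus strand, the strand of the gene. This was 82 of 82 peaks (exact 95% interval 95.6 to 100%), across both introns and all 9 stretches. Of the 4830 intronic CCT3-2 peaks in genes whose strand the table gives, 96.2% were on the strand of their gene, so this strand was usual for intronic peaks of this list. Over the whole list 49.9% of peaks were on the plus strand. The CCT3 table has no strand, so the strand of its 52 peaks is not known here.

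Most CCT3 peaks in Wwox lay over a CCT3-2 peak, and fewer of the reverse. At an overlap of 1 base or more, 45 of 52 CCT3 peaks (86.5%, 74.7 to 93.3%) overlapped a CCT3-2 peak, against 89.9% of all CCT3 peaks and 88.9% of intronic ones. Of the 82 CCT3-2 peaks, 45 (54.9%, 44.1 to 65.2%) overlapped a CCT3 peak, against 64.3% of all CCT3-2 peaks and 59.0% of intronic ones. With 50% reciprocal overlap the count was 37 of 52 CCT3 peaks, against 77.9% of all CCT3 peaks. The lists shared 2448 bases in Wwox, which were 79.8% of the bases covered in CCT3 and 47.8% of those in CCT3-2. None of the 47 overlapping pairs had identical borders. The 7 CCT3 peaks without a partner were never far from one, at 0 to 207 bases from the nearest CCT3-2 peak. The closest of them, 114537529 to 114537537, ended on the base before the CCT3-2 peak that starts at 114537538. Of the 37 CCT3-2 peaks without a partner, 28 lay 0 to 453 bases from a CCT3 peak, and the other 9 formed the 3 stretches that CCT3 lacks. With 1 or both of the 2 values below 3 there were 11 CCT3-2 peaks in Wwox, 9 of them without a partner, and 6 of those 9 lay in these 3 stretches. In the CCT3-2 list as a whole 83.7% of peaks reached a log2 fold and a −log10 p of 3, and in Wwox 71 of 82 did (86.6%, 77.6 to 92.3%). In the CCT3 list 100% of peaks reached both, so peak counts and overlaps of the lists are set at unlike lower limits.

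Within overlapping pairs the log2 folds were close. The median difference, CCT3-2 minus CCT3, was −0.02, and 40 of 47 pairs differed by at most 0.5. The fold was higher in CCT3-2 for 22 pairs, and the −log10 p was higher there for 33. The widest differences came from the CCT3 peak at 114538393 to 114538436, with 5.12 against 3.90 in CCT3-2, and from that at 115098558 to 115098601, with 3.72 against 5.23 for a CCT3-2 peak that it met by only 2 bases. Across the 47 pairs Spearman's rho was 0.868 and Pearson's r 0.856, and over 3318 pairs with an intronic CCT3 peak anywhere rho was 0.823. The paired peaks were selected by overlap and may share a library and an input, and these coefficients are descriptions.

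**Figure D3:**
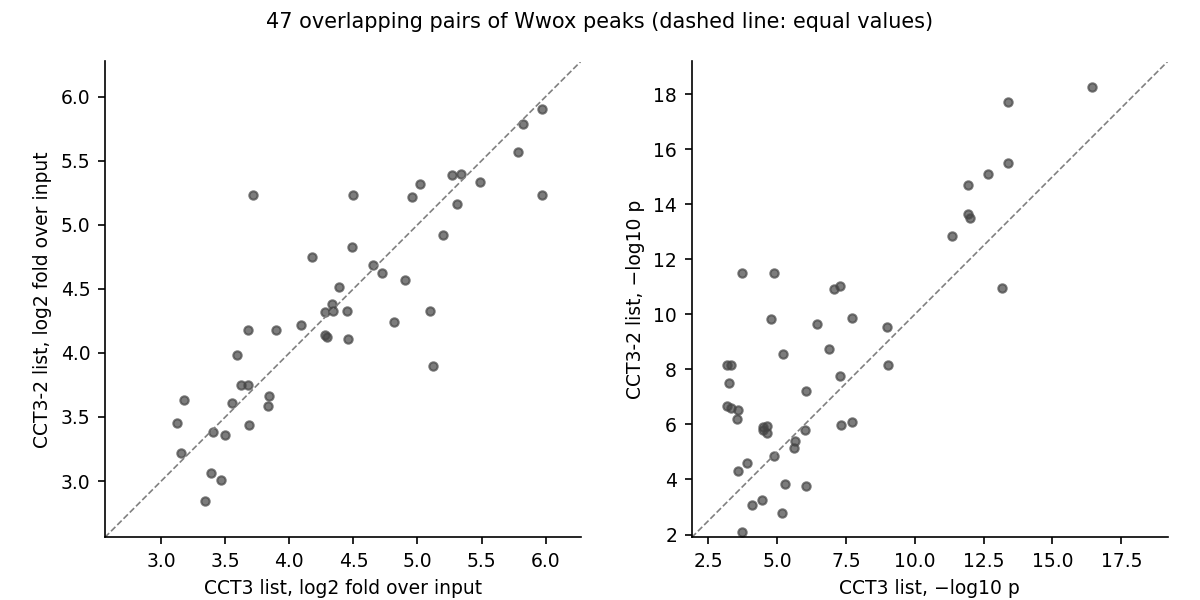
Each point is 1 of 47 overlapping pairs of Wwox peaks, with the CCT3 value on the horizontal and the CCT3-2 value on the vertical axis, as log2 fold over input (left) and −log10 p (right). The folds scatter around the dashed line of equal values, while 33 of the 47 pairs lie above it for −log10 p.

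The folds of the Wwox peaks lay well within the range of intronic peaks of these lists. The log2 folds in CCT3 ran from 3.13 to 5.98 with a median of 4.31, against a median of 4.36 and a highest value of 8.67 over 3235 intronic peaks. In CCT3-2 they ran from 2.71 to 5.90 with a median of 4.13, against 4.04 and 7.65 over 5148. The median −log10 p was 5.24 in CCT3 and 5.95 in CCT3-2, against 6.04 and 5.41 for all intronic peaks. Wwox peaks had a median width of 50 bases in CCT3 and 59 in CCT3-2, against 60 and 61. The stricter threshold, 4 or more for the log2 fold and 5 or more for the −log10 p, was met by 22 of 52 CCT3 peaks (42.3%, 29.9 to 55.8%) and 40 of 82 CCT3-2 peaks (48.8%, 38.3 to 59.4%), against 48.5% and 38.2% of intronic peaks.

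By number of all peaks per gene Wwox ranked 2 among 2218 genes of the CCT3 list and 3 among 2868 of CCT3-2. By number of intronic peaks it ranked 1 among 684 genes of the CCT3 list and 1 among 857 of CCT3-2. The median gene in either list had 3. The genes that followed in CCT3 were Dync2h1, a cilium motor subunit, and Ube2e2, a ubiquitin-conjugating enzyme, with 36 each, Samd4, an RNA-binding repressor of translation, and Spidr, a DNA repair scaffold, with 33 each, and the long noncoding RNA Airn with 31. In CCT3-2 they were Dync2h1 with 51, Spidr with 50, and Airn, Cep112, a centrosome protein, and Ghr, the growth hormone receptor, with 48 each. Wwox, with 2 introns, lay between these genes in how many introns held peaks. Dync2h1 had them in 6 introns in CCT3 and 7 in CCT3-2, Cep112 in 5 in CCT3-2, Samd4 in 4 in CCT3 and Spidr in 3 in each list, while Ube2e2, Ghr and Airn had them in 1. All 36 of Ube2e2 lay in intron 2 of 3, all 48 of Ghr in intron 1 of 10, and all 31 and 48 of Airn in intron 1 of 2. The median log2 folds of the genes named here, 4.19 to 4.50 in CCT3 and 4.00 to 4.82 in CCT3-2, span the medians of Wwox.

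Set against its length, Wwox was not extreme. It had 5.70 intronic CCT3 peaks per 100 kb of gene, rank 240 of 684, and 8.98 in CCT3-2, rank 243 of 857, whereas Airn had 26.1 and 40.5. It was the gene with rank 7 by length among those with an intronic CCT3 peak, whose median length was 87099 bases. Most long genes had no intronic peak. Of 227 protein-coding genes of at least 500000 bases, 32 (14.1%) had an intronic CCT3 peak and 39 (17.2%) an intronic CCT3-2 peak, with medians of 4.5 and 7 peaks among those that had any. Over all 21900 protein-coding genes these shares were 2.99% and 3.75%. None of the other long genes with a peak exceeded Wwox in peaks per 100 kb. The next in number was Sox5, a transcription factor gene of 954 kb, with 26 and 34. Of 71 protein-coding genes longer than Wwox, 6 had an intronic CCT3 peak, with 1 to 26 peaks each, and 7 an intronic CCT3-2 peak, with 1 to 34. Sox5 and the other longer genes were named after their values were seen.

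**Figure D4:**
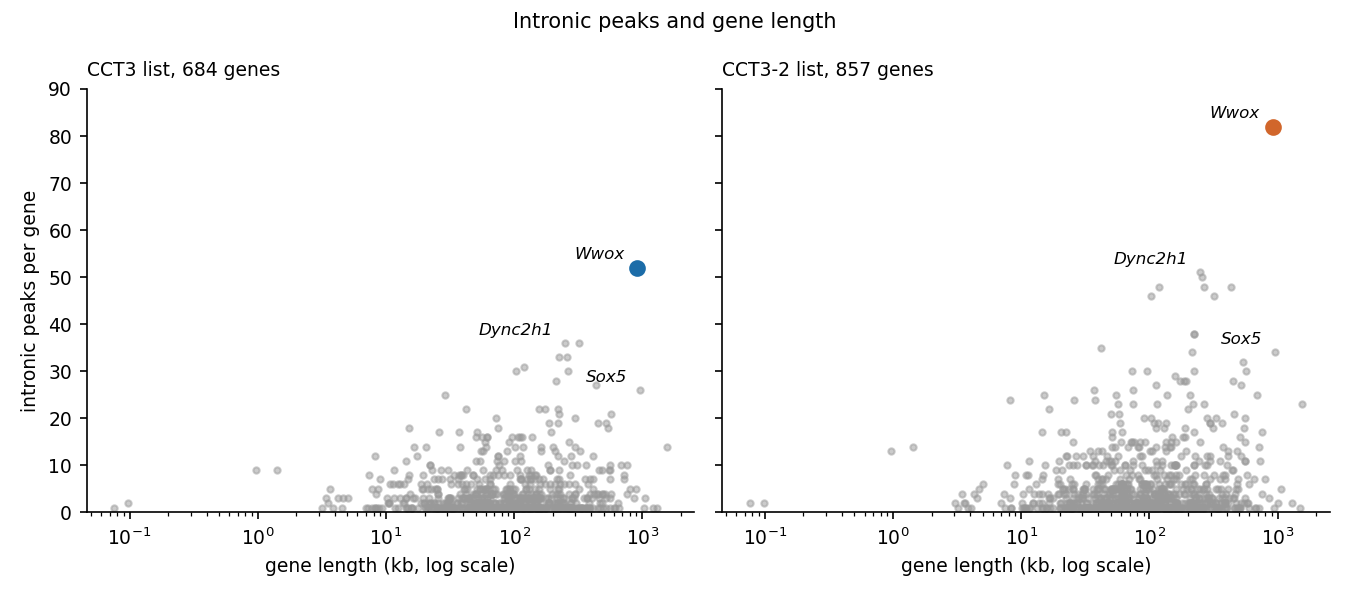
Each point is 1 gene with an intronic peak in the CCT3 list (left, 684 genes) or the CCT3-2 list (right, 857 genes), by RefSeq gene length (horizontal axis, kb, log scale) and number of intronic peaks (vertical axis). Wwox, the coloured point, stands above all other genes at 52 and 82 peaks, and most genes of similar length have few.

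Genes related to Wwox were examined in 4 lists, each beside the share of all protein-coding genes with a peak, 22.9% in PABPC1, 9.55% in CCT3 and 12.3% in CCT3-2. Genes at common fragile sites had a peak in 7, 5 and 8 of 26 cases. An intronic peak was present for 3 of the 26 in CCT3 and 5 in CCT3-2. Over all protein-coding genes of at least 500000 bases, the shares with an intronic peak were 14.1% and 17.2%. Among them Nbea, a gene for a membrane trafficking protein, had 11 CCT3 peaks, 9 of them intronic, and 14 CCT3-2 peaks, 11 of them intronic. Exoc4, an exocyst subunit, had 7 and 11, all intronic. Other well-known fragile site genes, including Fhit, Macrod2 and Dmd, had 0 peaks in both CCT3 lists. Of 32 genes for proteins with WW domains, Wwox included, 8 were reached by PABPC1, 9 by CCT3 and 16 by CCT3-2 peaks. Both CCT3 counts hold Wwox itself, which was chosen for its peaks. Among the WW domain genes, Magi3, a scaffold gene, had 13 and 26 peaks, up to a log2 fold of 6.52. The ubiquitin ligase gene Nedd4 had 13 and 23 peaks, none of them intronic, and Apbb2, an amyloid precursor adaptor, had 10 and 17.

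Among 19 genes for partners of the WWOX protein and its pathway, 8 were reached by PABPC1, 5 by CCT3 and 6 by CCT3-2 peaks. Jun, a transcription factor that the WWOX protein binds, had 9 CCT3 peaks up to a log2 fold of 5.25 and 18 CCT3-2 peaks. The ubiquitin ligase gene Itch had 2 and 5, and Smad3, a TGF-beta effector, 3 and 4, all of them intronic in both genes. Trp53, which encodes p53, had 2 PABPC1 peaks and no CCT3 peak. Of 21 other short-chain dehydrogenase/reductase genes, 3 had a PABPC1 peak and 1, Dhrs9, a peak in each CCT3 list. Dhrs9 had 1 CCT3 and 4 CCT3-2 peaks, against 52 and 82 in Wwox.

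The surroundings of Wwox carried few peaks. The 4 long noncoding RNA genes that RefSeq places inside the Wwox span, Gm16116, Gm30554, Gm16118 and Gm39257, overlapped 0 peaks of any list, and the nearest Wwox peak to any of them was 27.3 kb away, from Gm16116 in CCT3-2. Clec3a, the nearest protein-coding gene upstream, had 0 peaks in each list. Maf, a transcription factor gene 351 kb downstream of Wwox, had 7 CCT3 peaks up to a log2 fold of 4.08 and 11 CCT3-2 peaks up to 5.26, none of them intronic. The nearest transcription starts listed for the Wwox peaks belong to shorter Wwox transcripts, and no peak was close to one: the nearest distances were 68233 bases in CCT3 and 48495 in CCT3-2. PABPC1 had no peak in Wwox, and its nearest peaks on chromosome 8 lay 2487 kb before the gene, in Gabarapl2, and 1163 kb after it, in Dynlrb2. Without read depth, 0 peaks do not show that PABPC1 leaves Wwox RNA unbound.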

How the data were processed

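eCLIP peak lists of GC-2spd(ts) cells were analysed for PABPC1, CCT3 and CCT3-2. Per the submitters' processing notes, bcl2fastq 2.20 and the build mm10 were used. For the aligner, the peak caller and duplicates, the tools were not given in the sources used here. The deposited log2 fold values, taken as immunoprecipitation over input, and the deposited −log10 p values, which stop at 400, are the authors' own. Their columns are named in the CCT3 table and were read in the other tables by place and range. Intron numbers come from the deposited annotation.

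Peaks were given to the gene ID in the annotation, or else the listed gene, and gene spans, lengths and names come from RefSeq (GRCm38.p6, the same build). Overlap needed at least 1 base, regardless of strand, and clusters joined peaks at most 1000 bases apart. Wilson and exact intervals (95%) used Python 3.11.15, pandas 2.3.3, numpy 2.4.6 and scipy 1.17.1, with figures from matplotlib 3.10.9. The counting was tested on simulated data. No p-value was computed.

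The gene and the gene lists were chosen with earlier results of these data known, and 2 genes taken out of the fragile site list afterwards are not reported here. Named are Wwox, its neighbours, the 5 other genes with most intronic peaks per CCT3 list, up to 4 members per gene list, and in Wwox the highest, first and last peaks and the largest clusters. Others, such as Sox5, Fhit or Dhrs9 as a single member, were named after their values were seen. The alternatives were a stricter threshold, peaks by position, merging within 10 bases, covered bases, gaps of 200 and 5000 bases, 50% reciprocal overlap and peaks of at least 20 bases. Those chosen after seeing the data were CCT3-2 peaks at a log2 fold and a −log10 p of at least 3.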

Additional observations from a re-analysis of the deposited data

How the results depend on the processing

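For 13 results 28 alternative values were computed, of which 20 were inside the main value's interval, within 1 SD of a median or within 1.5 times a count. At a log2 fold of at least 4 and a −log10 p of at least 5, which removes peaks by construction, Wwox had 22 CCT3 and 40 CCT3-2 peaks, and 9 CCT3-2 clusters. The number of clusters follows the gap that joins them: 25 in CCT3 and 28 in CCT3-2 at gaps of up to 200 bases, and 6 and 9 at gaps of up to 5000 bases. With 50% reciprocal overlap, which can only remove overlaps by construction, 71.2% of Wwox CCT3 peaks overlapped a CCT3-2 peak. Over all CCT3 peaks the share under this rule was 77.9%. CCT3-2 peaks at a log2 fold and a −log10 p of at least 3, chosen after seeing the data, left 71 peaks in 12 clusters. No paired analysis was possible because no groups were compared by a test: each protein has 1 list, apart from the CCT3 lists that share a library name. Read depth is unknown, so the number of peaks in a gene cannot be set against its reads.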

Other observations

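Many Wwox peaks had exactly the same −log10 p as another Wwox peak of their list, 19 of 52 in CCT3 and 29 of 82 in CCT3-2. Such repeats were not counted outside Wwox, so it is not known here whether they are particular to this gene. The narrowest Wwox peak was 9 bases wide in CCT3 and 3 bases wide in CCT3-2, at 114839954 to 114839956 with a log2 fold of 3.90.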
